A study of Mus musculus with 15 samples.

Results

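The 37 genes described here encode the transporters and enzymes of glycolysis, the enzymes of the pentose phosphate pathway, and a small group of oxygen sensors and hypoxia targets. They were taken by symbol from the 52327 genes of the count table. All but Ldhb, 36 genes, had at least 10 counts in at least 3 libraries and so were among the 13199 genes tested. The mRNA was sequenced from a mouse blood cell line labelled HoxB, with 3 libraries in each of 5 groups. RUNX1-ETO_ONLY cells carried the RUNX1-ETO fusion, and CSF3R_ONLY cells carried the receptor CSF3R-T618I. Both alleles were present in the groups RUNX1-ETO_FIRST and CSF3R_FIRST, each named for the allele that came first. EMPTY cells carried control vectors, and the line is common to all groups. RUNX1-ETO joins the transcription factor RUNX1 to the corepressor ETO, and T618I makes the receptor for granulocyte colony-stimulating factor signal without its ligand. The sources used here do not give what drove the alleles, whether a group was a clone or a pool, or whether its libraries came from separate cultures. The p-values therefore measure the spread between these libraries, which may be technical.

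Glycolysis turns glucose into pyruvate, and lactate dehydrogenase and monocarboxylate transporters dispose of pyruvate as lactate. The pentose phosphate pathway branches from glucose 6-phosphate and supplies NADPH, which the phagocyte oxidase of neutrophils consumes, and ribose for nucleotides. Under low oxygen the prolyl hydroxylases (the Egln proteins) stop marking HIF-1α, the product of Hif1a, for destruction, and HIF-1 then raises most glycolytic genes; myeloid cells use HIF-1 and glycolysis also when oxygen is plentiful.

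Total counts per library were 17007437 to 18178292. Runx1t1, the mouse gene of ETO, had 6786 to 13499 counts in every library that should carry the fusion and 0 counts in every CSF3R_ONLY and EMPTY library. Csf3r had 618, 627 and 623 CPM in CSF3R_ONLY, against 422, 465 and 373 CPM in EMPTY, where CPM is a gene's count scaled to a common library size with TMM factors. Csf3r was also higher than EMPTY in RUNX1-ETO_ONLY (log2 difference 0.32), which has no introduced receptor. In RUNX1-ETO_FIRST (0) and CSF3R_FIRST (-0.08) its difference from EMPTY did not pass the test described below. Csf3r counts therefore do not show the introduced receptor in the groups with both alleles. Whether these counts include the introduced receptor is not stated in the labels. The cells expressed granulocyte genes: the 14 neutrophil markers summed to 20915 to 22683 CPM in RUNX1-ETO_ONLY, 38472 to 38642 in CSF3R_ONLY, 17408 to 19721 in RUNX1-ETO_FIRST, 18940 to 19628 in CSF3R_FIRST and 49578 to 57733 in EMPTY. Most of that sum was Mpo, the myeloperoxidase of early granules, with a mean of 18231 ± 540 CPM in RUNX1-ETO_ONLY, 25639 ± 201 in CSF3R_ONLY, 13801 ± 736 in RUNX1-ETO_FIRST and 12431 ± 688 in CSF3R_FIRST, against 45071 ± 2680 in EMPTY (SD, n = 3 each). Gene by gene, 2 of the 14 were higher than in EMPTY and 5 lower in RUNX1-ETO_ONLY, 10 and 2 in CSF3R_ONLY, 3 and 7 in RUNX1-ETO_FIRST, and 7 and 5 in CSF3R_FIRST. The late granule gene Ngp averaged 1708 ± 28.5 CPM in CSF3R_ONLY and 309.5 ± 60.7 in EMPTY (SD, n = 3 each). The 9 mast cell and basophil markers summed to 11866 to 13034 CPM in RUNX1-ETO_ONLY, 3798 to 3843 in CSF3R_ONLY, 16025 to 19464 in RUNX1-ETO_FIRST, 29046 to 33732 in CSF3R_FIRST and 1674 to 2162 in EMPTY, and in each group 8 of the 9 were higher than in EMPTY and 1 lower. These markers moved with the groups throughout, and their part in the results was not tested; in bulk RNA, fewer cells of a type and less RNA per cell cannot be told apart. The 6 lymphoid markers summed to at most 1.44 CPM in any library, with Cd3e and Pax5 at 0. In 4 libraries, RUNX1-ETO_ONLY replicate 3, RUNX1-ETO_FIRST replicate 1, CSF3R_FIRST replicate 3 and EMPTY replicate 3, genes with long transcripts were low relative to their own group (correlation of a gene's deviation with log transcript length below -0.25 over 12873 genes, the lowest -0.474 in EMPTY replicate 3). EMPTY replicate 3 was also the highest EMPTY library for Gapdh, Aldoa, Eno1 and Taldo1, so counts are given with and without these 4 libraries.

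With the fusion alone, most of these genes were lower than in EMPTY. Of the 36 tested, 5 were higher and 26 lower in RUNX1-ETO_ONLY (edgeR's quasi-likelihood test, Benjamini-Hochberg adjusted p below 0.05 over all genes), where 20.8% of all genes tested were higher and 18.1% lower, 38.9% in all. The median log2 difference was -0.38 for the members and 0.01 for all genes. The lowest relative to EMPTY were Pfkfb4 (-1.13), Egln3 (-1.12), Bnip3 (-1.07), Pgd (-1.0), Gpi1 (-0.86) and Aldoa (-0.83), and the 5 that rose were Aldoc, Pfkm, Hk1, Slc2a3 and Hk3. Without the 4 libraries low in long transcripts, 5 were higher and 27 lower, beside 24.6% and 24.1% of all genes (48.7% in all). The lower calls of Gapdh and Tpi1 were lost without RUNX1-ETO_ONLY replicate 1 or 2 or EMPTY replicate 3, and that of Ldha without RUNX1-ETO_ONLY replicate 1 or 2 (adjusted p up to 0.131). Those of Pfkfb3 and Ddit4 were lost without RUNX1-ETO_ONLY replicate 2 or 3, CSF3R_ONLY replicate 1, 2 or 3, RUNX1-ETO_FIRST replicate 2 or EMPTY replicate 1 or 2, and that of Ddit4 also without RUNX1-ETO_FIRST replicate 1 (adjusted p up to 0.183). The calls of Slc2a1, Slc2a3, Hk3, Tkt and Hif1a were lost, with these 5, when RUNX1-ETO_ONLY and EMPTY were fitted alone (adjusted p = 0.0531 to 0.17).

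With the mutant receptor alone, fewer members passed the test, most of them higher than in EMPTY. In CSF3R_ONLY, 13 were higher and 3 lower than in EMPTY, beside 19.9% and 13.0% of all genes (32.9% in all), and the member median was 0.20 against 0.00 for all genes. The largest rises were those of Aldoc (1.99), Slc2a3 (1.47), Hif1a (1.39), G6pdx (1.07) and Slc16a3 (1.06), and the genes that fell were Hk3 (-0.42), Egln3 (-0.33) and Vegfa (-0.27). Without the 4 libraries low in long transcripts, 21 were higher and 5 lower, beside 25.6% and 21.7% of all genes, and with CSF3R_ONLY and EMPTY fitted alone 8 were higher and 2 lower. The higher calls of Tpi1 and Pgd were lost without CSF3R_ONLY replicate 1, 2 or 3, RUNX1-ETO_FIRST replicate 3, CSF3R_FIRST replicate 1 or 2 or EMPTY replicate 1 or 2, and that of Pgk1 without CSF3R_ONLY replicate 2 (adjusted p up to 0.128). Set against each other, RUNX1-ETO_ONLY was higher than CSF3R_ONLY for 3 members and lower for 28, beside 22.2% and 23.6% of all genes (45.8% in all), and no call among these 31 was lost when any single library was left out. Without the 4 low libraries, 3 were higher and 29 lower, beside 30.1% and 31.6%. The member median of that comparison was -0.65, against 0.01 for all genes.

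Cells with both alleles had more members above EMPTY than below it. In RUNX1-ETO_FIRST, 14 were higher and 10 lower, beside 23.7% and 20.1% of all genes (43.8% in all), with a median of 0.13 against -0.02 for all genes. In CSF3R_FIRST, 18 were higher and 6 lower, beside 26.7% and 26.5% of all genes (53.3% in all), with a median of 0.32 against -0.05. Without the 4 low libraries, 17 were higher and 14 lower in RUNX1-ETO_FIRST, beside 27.1% and 27.1% of all genes, and 19 and 8 in CSF3R_FIRST, beside 32.2% and 32.0%. Scaled by library size alone, the CSF3R_FIRST counts were 15 higher and 13 lower, and with RUNX1-ETO_FIRST and EMPTY fitted alone 10 were higher and 5 lower. In both groups the largest rises belonged to Aldoc and Slc16a3 among members with more than 3 EMPTY counts, followed by Hk1, Slc2a1, Slc2a3, Ddit4 and Hif1a, while Pgd, Rpia, Pfkfb3, Slc16a1 and Egln3 were lower than in EMPTY. In RUNX1-ETO_FIRST, the calls of Gpi1 and G6pdx were lost without RUNX1-ETO_FIRST replicate 2, of Egln3 without that library or EMPTY replicate 3, of Pgam1 without RUNX1-ETO_FIRST replicate 2 or 3, of Pgk1 without RUNX1-ETO_FIRST replicate 1 or EMPTY replicate 2, of Ldha without RUNX1-ETO_FIRST replicate 1 or EMPTY replicate 1 or 2, and of Tpi1 without 1 of those 3, RUNX1-ETO_FIRST replicate 3 or CSF3R_FIRST replicate 1 or 2 (adjusted p up to 0.154). In CSF3R_FIRST, the calls of Hk2 were lost without CSF3R_FIRST replicate 1 or 2 or EMPTY replicate 3, of Aldoa without CSF3R_FIRST replicate 3 or EMPTY replicate 1 or 2, of Gapdh without 1 of these 3 or CSF3R_FIRST replicate 1, and of Tkt when any library but EMPTY replicate 3 was left out (adjusted p up to 0.175). The EMPTY libraries are common to all 4 of these comparisons, so their results are not independent. The map of all members by library shows these blocks of genes.

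**Figure D1:**
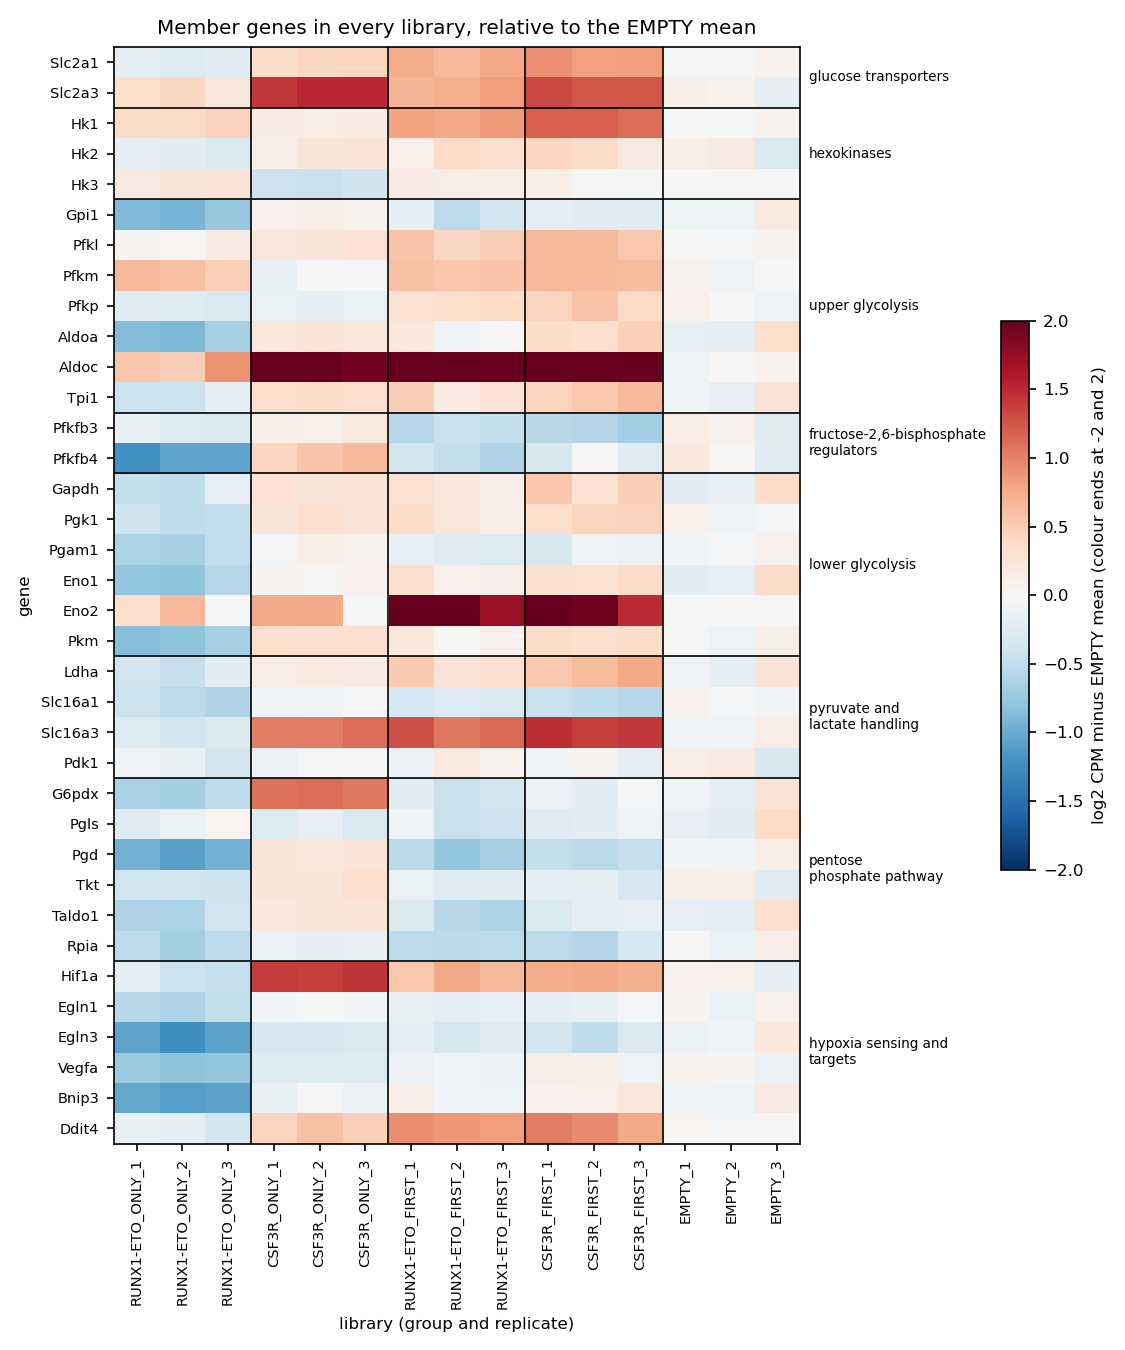
Each cell is the log2 CPM of 1 of the 36 tested genes (rows, grouped by role) in 1 of the 15 libraries (columns) minus the mean log2 CPM of the 3 EMPTY libraries, with the colour ending at -2 and 2. Most rows are blue in RUNX1-ETO_ONLY, and the rows of Aldoc, Slc2a3, Slc16a3 and Hif1a are red in CSF3R_ONLY and in both groups with 2 alleles.

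Because HIF-1 binds the core letters ACGTG or GCGTG, these were searched on both strands in the 250 bases before the RefSeq start sites of mouse build GRCm38.p6. The table had windows for 36 members, not for Slc2a3, and 33 of these genes (91.7%) had a match in at least 1 window, beside 41.5% of the 27025 symbols in the table. By window, 41 of 51 member windows (80.4%) and 38.6% of all 32851 windows held a match. The 27025 symbols go beyond the 13199 genes tested here, and the share among tested genes was not counted. No enrichment over expressed genes can therefore be read from these shares. The letters CACGTG, which bind MYC and related factors, contain ACGTG on each strand and count as 2 matches. Gpi1, Tpi1 and Eno2 had no match in these windows. A match describes the letters only and does not show that a factor bound there. Of the members, 10 were lower than EMPTY in RUNX1-ETO_ONLY and higher in CSF3R_ONLY. Of all genes, 18.1% were lower in the first comparison and 19.9% higher in the second, and the share with both was not counted. Calls of Ddit4, Tpi1, Pgk1 and Pgd in these comparisons were lost when certain single libraries were left out, as given above. Of the 10, Hif1a held 3 matches, Slc2a1, Ddit4, Pgk1 and Slc16a3 held 2 each, Pfkfb4 and G6pdx 1 each, and Tpi1 none, while Pkm and Pgd each had 1 window with 1 match and 1 with none. Shown here, with matches in capitals, are 3 chosen from those 10 with their matches known, Hif1a, Slc16a3 and Pgk1, and Hk3, which was higher in RUNX1-ETO_ONLY and lower in CSF3R_ONLY. The Hif1a and Slc16a3 windows lie inside those genes' spans in GENCODE M21, which also holds starts further upstream, and 14 bases of the Slc16a3 window are exonic in it.
Hif1a promoter, chr12:73907617-73907866, plus strand: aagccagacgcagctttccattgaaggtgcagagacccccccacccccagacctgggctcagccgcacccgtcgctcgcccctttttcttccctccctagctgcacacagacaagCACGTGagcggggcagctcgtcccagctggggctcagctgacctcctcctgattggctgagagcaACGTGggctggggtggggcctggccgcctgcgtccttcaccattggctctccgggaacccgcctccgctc
Slc16a3 promoter, chr11:120948817-120949066, plus strand: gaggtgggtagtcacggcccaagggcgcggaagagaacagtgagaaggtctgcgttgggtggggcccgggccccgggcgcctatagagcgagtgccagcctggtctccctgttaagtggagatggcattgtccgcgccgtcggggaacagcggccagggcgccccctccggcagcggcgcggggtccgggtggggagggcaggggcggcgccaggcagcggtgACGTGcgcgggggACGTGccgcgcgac
Pgk1 promoter, chrX:106186850-106187099, plus strand: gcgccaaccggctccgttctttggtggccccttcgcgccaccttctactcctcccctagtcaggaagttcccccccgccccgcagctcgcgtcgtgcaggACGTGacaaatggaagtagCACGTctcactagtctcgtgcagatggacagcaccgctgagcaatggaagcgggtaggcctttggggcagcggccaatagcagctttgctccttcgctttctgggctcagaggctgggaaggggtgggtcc
Hk3 promoter, chr13:55021386-55021635, minus strand: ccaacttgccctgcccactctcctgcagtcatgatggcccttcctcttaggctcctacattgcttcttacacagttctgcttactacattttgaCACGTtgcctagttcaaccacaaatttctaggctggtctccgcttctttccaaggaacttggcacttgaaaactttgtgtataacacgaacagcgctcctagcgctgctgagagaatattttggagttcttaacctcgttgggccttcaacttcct
Hif1a held 3 matches, 2 of them from a single CACGTG, between 135 and 70 bases before the start. Slc16a3 held 2, at 27 and 14 bases, and Pgk1 2, at 150 and 131 bases. Hk3 held 1 match at 156 bases.

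Glucose enters the cell through the facilitative transporters Slc2a1 (GLUT1) and Slc2a3 (GLUT3). Slc2a1 had 247, 231 and 238 CPM in RUNX1-ETO_ONLY, 359, 373 and 375 in CSF3R_ONLY, 465, 438 and 471 in RUNX1-ETO_FIRST, 524, 492 and 499 in CSF3R_FIRST, against 271, 273 and 294 in EMPTY. All 9 libraries with the receptor were above every EMPTY library, and those of RUNX1-ETO_ONLY were below. Slc2a1 was 1.64-fold higher in RUNX1-ETO_FIRST (log2 difference 0.71, SE 0.064, adjusted p = 1.73e-07) and 1.81-fold higher in CSF3R_FIRST (log2 difference 0.85, SE 0.064, adjusted p = 1.59e-08) than in EMPTY. Slc2a3 (chr6:122727809-122801640 in mm10) had 43.2, 45.0 and 39.7 CPM in RUNX1-ETO_ONLY, 90.8, 96.3 and 96.1 in CSF3R_ONLY, 54.4, 56.0 and 60.5 in RUNX1-ETO_FIRST, 84.5, 80.4 and 79.9 in CSF3R_FIRST, against 36.5, 35.7 and 29.7 in EMPTY. Here every group stood above EMPTY, and CSF3R_ONLY was the highest: it was 2.77-fold above EMPTY (log2 difference 1.47, SE 0.086, adjusted p = 1.78e-09). RUNX1-ETO_FIRST stood below CSF3R_FIRST for Slc2a3 (log2 difference -0.52, SE 0.084, adjusted p = 0.000433). Per kilobase of transcript, Slc2a1 stayed the more abundant transporter, at 155 CPM per kb against 20.6 for Slc2a3 in CSF3R_FIRST, and 85.7 against 8.59 in EMPTY.

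**Figure D2:**
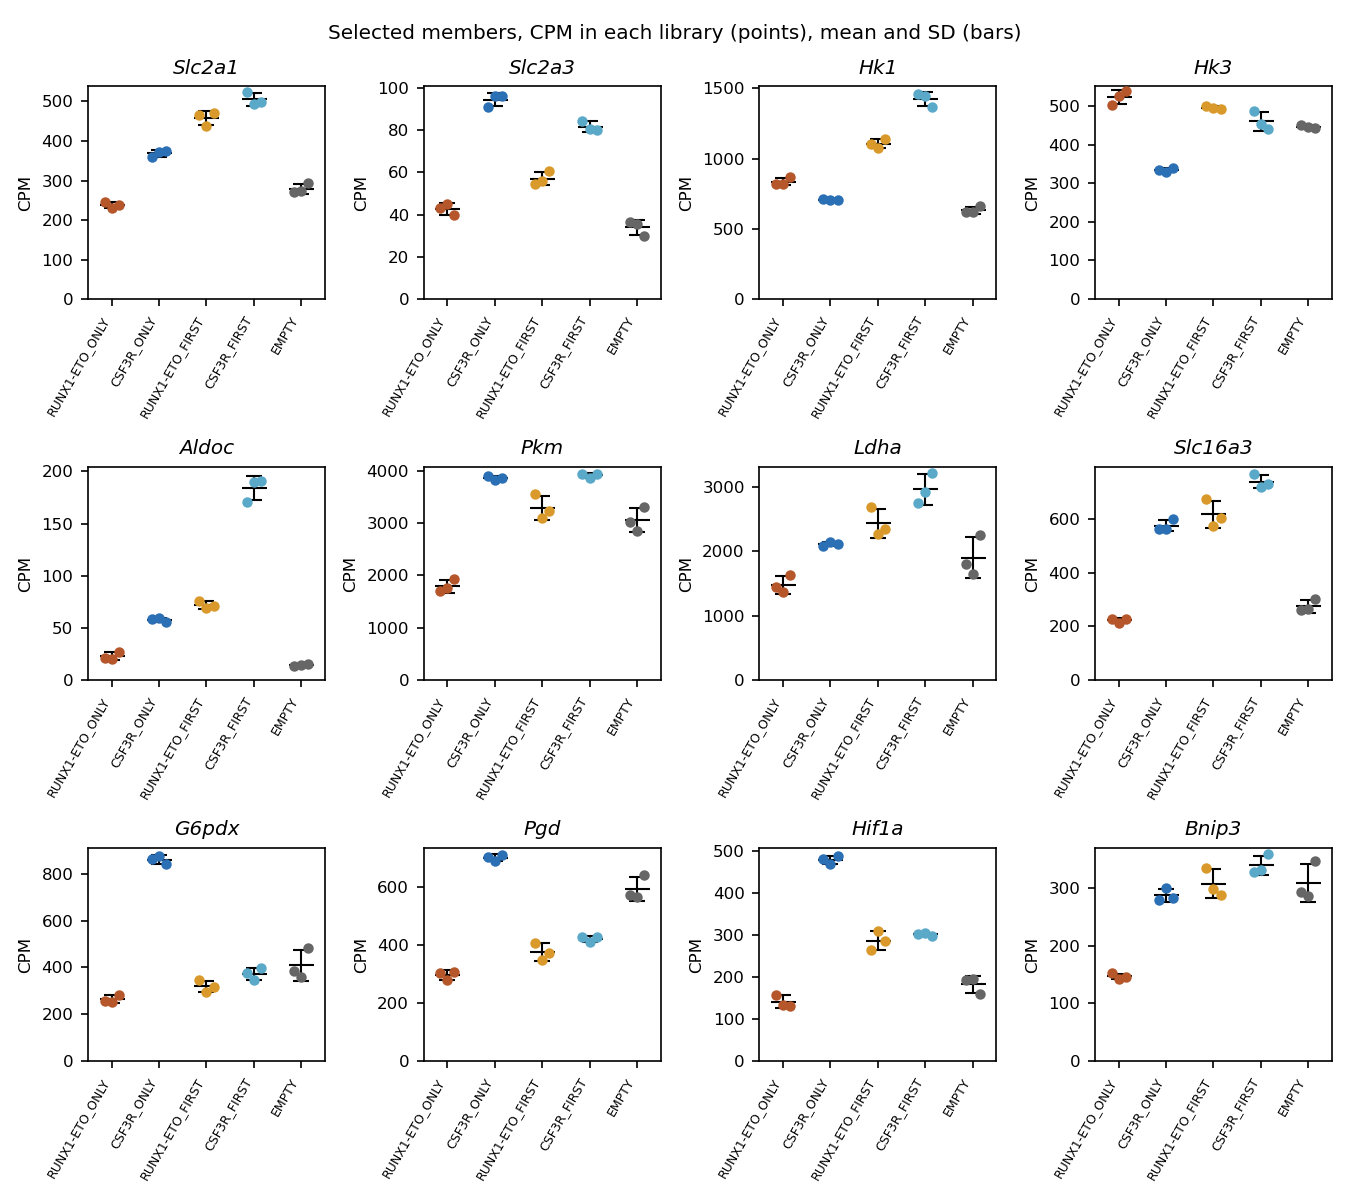
CPM of 12 members (vertical axes, each starting at 0) in the 5 groups, with each library as a point and the mean and SD of 3 libraries as bars. Aldoc lies between 171 and 191 CPM in CSF3R_FIRST and between 13.5 and 15.3 in EMPTY, G6pdx and Hif1a are highest in CSF3R_ONLY, and Bnip3 is lowest in RUNX1-ETO_ONLY.

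Hexokinases trap glucose in the cell by phosphorylating it. Hk1, the most abundant of them, had 821, 822 and 867 CPM in RUNX1-ETO_ONLY, 712, 703 and 707 in CSF3R_ONLY, 1102, 1073 and 1138 in RUNX1-ETO_FIRST, 1456, 1448 and 1366 in CSF3R_FIRST, against 619.9, 616 and 663 in EMPTY. Hk1 rose in the 3 groups with the fusion, by 1.32-fold in RUNX1-ETO_ONLY (log2 difference 0.40, SE 0.066, adjusted p = 0.000141), 1.74-fold in RUNX1-ETO_FIRST (log2 difference 0.80, SE 0.066, adjusted p = 5.96e-08) and 2.25-fold in CSF3R_FIRST (log2 difference 1.17, SE 0.066, adjusted p = 5.22e-10). Its 3 CSF3R_ONLY libraries were also above EMPTY, without passing the test. Hk3, a form found mainly in blood cells, had 503, 526 and 539 CPM in RUNX1-ETO_ONLY, 334, 329 and 339 in CSF3R_ONLY, 501, 494 and 491 in RUNX1-ETO_FIRST, 486, 453 and 440.1 in CSF3R_FIRST, against 450.0, 445 and 443 in EMPTY. It was the one hexokinase that fell with the receptor alone (log2 difference -0.42, SE 0.062, adjusted p = 6.99e-05), and CSF3R_FIRST cells were back above CSF3R_ONLY (log2 difference 0.46, SE 0.062, adjusted p = 1.47e-05). Hk2, a form that HIF-1 can induce, ranged from 118 to 197 CPM over all libraries and was higher in RUNX1-ETO_FIRST than in RUNX1-ETO_ONLY (log2 difference 0.51, SE 0.12, adjusted p = 0.00391). Per kilobase, Hk1, Hk3 and Hk2 stood at 370, 143 and 33.3 CPM per kb in CSF3R_FIRST, against 164, 138 and 26.7 in EMPTY.

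The upper steps of glycolysis turn glucose 6-phosphate into triose phosphates. The gene of these steps with the widest range was Aldoc, the aldolase best known from brain, chr11:78322968-78327781 in mm10, with 21.5, 20.4 and 27.1 CPM in RUNX1-ETO_ONLY, 58.4, 59.3 and 55.3 in CSF3R_ONLY, 76.1, 68.7 and 71.5 in RUNX1-ETO_FIRST, 171, 189.9 and 191 in CSF3R_FIRST, against 13.5, 14.8 and 15.3 in EMPTY. No 2 groups overlapped, and CSF3R_FIRST was the highest, then RUNX1-ETO_FIRST, CSF3R_ONLY, RUNX1-ETO_ONLY and EMPTY. The rise over EMPTY was 1.58-fold in RUNX1-ETO_ONLY (log2 difference 0.66, SE 0.10, adjusted p = 8.89e-05), 3.97-fold in CSF3R_ONLY (log2 difference 1.99, SE 0.10, adjusted p = 4.12e-10), 4.97-fold in RUNX1-ETO_FIRST (log2 difference 2.31, SE 0.10, adjusted p = 3.9e-11) and 12.7-fold in CSF3R_FIRST (log2 difference 3.66, SE 0.11, adjusted p = 1.51e-13). Aldoc stayed a minor aldolase all the same: per kilobase it reached 66 CPM per kb in CSF3R_FIRST, where Aldoa, the common form, was at 3360. Aldoa itself had 2121, 2069.8 and 2459 CPM in RUNX1-ETO_ONLY, 4527, 4629 and 4553 in CSF3R_ONLY, 4503, 3621 and 3952 in RUNX1-ETO_FIRST, 4979, 4874 and 5386 in CSF3R_FIRST, against 3448, 3402 and 4963 in EMPTY. It was lower in RUNX1-ETO_ONLY than in EMPTY (log2 difference -0.83, SE 0.13, adjusted p = 0.000122) and higher in RUNX1-ETO_FIRST than in RUNX1-ETO_ONLY (log2 difference 0.86, SE 0.13, adjusted p = 0.000158). The highest EMPTY value was again in EMPTY replicate 3. GENCODE M21 gives the symbol Aldoa to 2 gene models, which the deposited row does not separate.

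Gpi1, which isomerizes glucose 6-phosphate, had 2437, 2359 and 2659 CPM in RUNX1-ETO_ONLY, 4759, 4878 and 4720.3 in CSF3R_ONLY, 3935, 3101 and 3491 in RUNX1-ETO_FIRST, 3948, 3878 and 3876 in CSF3R_FIRST, against 4219.6, 4171 and 5105 in EMPTY. It was 1.81-fold lower in RUNX1-ETO_ONLY than in EMPTY (log2 difference -0.86, SE 0.10, adjusted p = 5.23e-06), and these groups did not overlap. The 3 phosphofructokinase genes, whose enzyme is the main control point of glycolysis, did not move together. Pfkm, the muscle form, rose in each group with the fusion (RUNX1-ETO_ONLY by a log2 difference of 0.57, RUNX1-ETO_FIRST by 0.57 and CSF3R_FIRST by 0.65) and averaged 28.6 ± 1.67 CPM in CSF3R_ONLY, against 29.6 ± 1.49 in EMPTY (SD, n = 3 each). Pfkp, the platelet form, fell in RUNX1-ETO_ONLY (-0.28) and rose in RUNX1-ETO_FIRST (0.35) and CSF3R_FIRST (0.47). Pfkl, the liver form, rose in RUNX1-ETO_FIRST (0.49) and CSF3R_FIRST (0.62). Tpi1, triose phosphate isomerase, averaged 782 ± 77.4 CPM in RUNX1-ETO_ONLY and was higher in RUNX1-ETO_FIRST (1249 ± 140 CPM, log2 difference 0.68, SE 0.12, adjusted p = 0.000384).

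Pfkfb3 and Pfkfb4 make and break fructose 2,6-bisphosphate, the activator of phosphofructokinase. Both fell in RUNX1-ETO_FIRST and in RUNX1-ETO_ONLY relative to EMPTY. For Pfkfb3 the fall in RUNX1-ETO_ONLY was marginal (log2 difference -0.25, adjusted p = 0.0434), its libraries overlapped those of EMPTY, and the call was lost in several leave-out fits, as given above. Pfkfb4 had 6.83, 7.65 and 7.65 CPM in RUNX1-ETO_ONLY, 21.5, 23.7 and 25.1 in CSF3R_ONLY, 12.2, 11.5 and 10.4 in RUNX1-ETO_FIRST, 12.9, 16.3 and 13.5 in CSF3R_FIRST, against 18.6, 16.4 and 13.5 in EMPTY. It was 2.19-fold lower in RUNX1-ETO_ONLY (log2 difference -1.13, SE 0.13, adjusted p = 4.15e-06) and 1.45-fold higher in CSF3R_ONLY (log2 difference 0.54, SE 0.12, adjusted p = 0.00313) than in EMPTY. CSF3R_FIRST fell below CSF3R_ONLY for Pfkfb4 (log2 difference -0.72, SE 0.12, adjusted p = 0.000185). Pfkfb3 had 121, 111 and 110.2 CPM in RUNX1-ETO_ONLY, 145, 145 and 154 in CSF3R_ONLY, 90.2, 98.4 and 97.1 in RUNX1-ETO_FIRST, 91.8, 89.8 and 83.7 in CSF3R_FIRST, against 149.8, 143 and 113 in EMPTY. All libraries with both alleles were below every library of the other 3 groups, with a log2 difference from EMPTY of -0.51 in RUNX1-ETO_FIRST (adjusted p = 0.000302) and -0.61 in CSF3R_FIRST (adjusted p = 3.67e-05).

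The lower steps, from glyceraldehyde 3-phosphate to pyruvate, hold the most abundant members. Gapdh had 5720.4, 5617 and 7107 CPM in RUNX1-ETO_ONLY, 9723, 9471 and 9619 in CSF3R_ONLY, 9818, 9223 and 8870.1 in RUNX1-ETO_FIRST, 11709, 9787 and 11209.8 in CSF3R_FIRST, against 6908, 7136 and 10363 in EMPTY. The RUNX1-ETO_ONLY and EMPTY libraries overlapped, because RUNX1-ETO_ONLY replicate 3 lay above the lowest EMPTY library, and their difference (log2 -0.40, adjusted p = 0.0344) no longer passed without RUNX1-ETO_ONLY replicate 1 (adjusted p = 0.12), RUNX1-ETO_ONLY replicate 2 (0.131) or EMPTY replicate 3 (0.0946). Pkm, the pyruvate kinase of dividing and myeloid cells, had 1699.6, 1754 and 1933 CPM in RUNX1-ETO_ONLY, 3905, 3833 and 3857 in CSF3R_ONLY, 3553, 3101 and 3226 in RUNX1-ETO_FIRST, 3937, 3860.1 and 3943 in CSF3R_FIRST, against 3016, 2857 and 3306 in EMPTY. Its RUNX1-ETO_ONLY libraries were all below those of every other group, 1.7-fold lower than EMPTY (log2 difference -0.77, SE 0.084, adjusted p = 2.17e-06) and 2.15-fold lower than CSF3R_ONLY (log2 difference -1.11, SE 0.085, adjusted p = 2.57e-08). Eno1, the common enolase, had 1722, 1682 and 1981 CPM in RUNX1-ETO_ONLY, 3065, 2980.4 and 3138 in CSF3R_ONLY, 3733, 3145 and 3236 in RUNX1-ETO_FIRST, 3681, 3650.0 and 3827 in CSF3R_FIRST, against 2534, 2639.5 and 3822 in EMPTY. It was lower in RUNX1-ETO_ONLY than in EMPTY (log2 difference -0.74, SE 0.13, adjusted p = 0.000322), with the highest EMPTY value in EMPTY replicate 3. The difference of CSF3R_FIRST from EMPTY for Eno1 missed the threshold (adjusted p = 0.058) and passed it with a replicate block (log2 difference 0.32, adjusted p = 0.0294). Pgk1 and Pgam1, which act between Gapdh and enolase, were likewise lower in RUNX1-ETO_ONLY (log2 differences -0.47 and -0.60).

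The lower glycolysis genes other than Eno2 were all higher in RUNX1-ETO_FIRST than in RUNX1-ETO_ONLY, by 0.37 for Pgam1, 0.60 for Gapdh, 0.71 for Pgk1, 0.87 for Pkm and 0.91 for Eno1 on the log2 scale. Eno2, the neuronal enolase, was barely detected, with 6 counts over the 3 RUNX1-ETO_ONLY libraries, 7 in CSF3R_ONLY, 34 in RUNX1-ETO_FIRST, 26 in CSF3R_FIRST and 3 in EMPTY. It reached 10 counts in 3 libraries only, all with both alleles, and so was tested only through the groups where it is high. The calls of Eno2 are included in the counts of members and are not separate support for them. Its ratio to EMPTY per total count was 11.1 in RUNX1-ETO_FIRST (exact 95% counting interval 3.5 to 56.7) and 9.15 in CSF3R_FIRST (2.8 to 47.2), intervals that cover counting error only. Nearly identical gene copies took few counts: Eno1b averaged 1.94 ± 0.531 CPM in RUNX1-ETO_ONLY and 3.80 ± 0.368 in EMPTY, and Pgam1-ps2 averaged 1.25 ± 0.0627 and 2.64 ± 0.349. The labels do not state how reads shared between such copies were assigned.

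Pyruvate leaves glycolysis through lactate dehydrogenase and the monocarboxylate transporters, or enters the mitochondrion unless Pdk1 blocks it. Slc16a3 (chr11:120948480-120960868), the lactate exporter MCT4, had 228, 213 and 226 CPM in RUNX1-ETO_ONLY, 562, 565 and 599 in CSF3R_ONLY, 675, 574 and 605 in RUNX1-ETO_FIRST, 767, 721 and 730.4 in CSF3R_FIRST, against 260.4, 264 and 304 in EMPTY. All 9 libraries with the receptor exceeded every library without it, with rises over EMPTY of 2.08-fold in CSF3R_ONLY (log2 difference 1.06, SE 0.081, adjusted p = 4.45e-08), 2.24-fold in RUNX1-ETO_FIRST (log2 difference 1.16, SE 0.081, adjusted p = 8.38e-09) and 2.68-fold in CSF3R_FIRST (log2 difference 1.42, SE 0.082, adjusted p = 5.82e-10). In RUNX1-ETO_ONLY it was 1.24-fold lower than in EMPTY (log2 difference -0.31, SE 0.080, adjusted p = 0.00582). Slc16a1, the transporter MCT1, was lower than EMPTY in every group with the fusion. It had 109, 117 and 113 CPM in RUNX1-ETO_FIRST and 103, 97.6 and 93.9 in CSF3R_FIRST, against 149, 135 and 135 in EMPTY (log2 differences -0.30 and -0.51). With the fusion alone the log2 difference of Slc16a1 was -0.52 (adjusted p = 1.66e-05), and in CSF3R_ONLY it did not pass (-0.06, adjusted p = 0.55). Per kilobase, Slc16a3 and Slc16a1 stood at 171 and 22.2 CPM per kb in CSF3R_FIRST, against 63.7 and 31.5 in EMPTY.

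Ldha, the lactate dehydrogenase subunit of glycolytic cells, had 1439, 1367 and 1627 CPM in RUNX1-ETO_ONLY, 2084, 2145 and 2109 in CSF3R_ONLY, 2692, 2259 and 2350.1 in RUNX1-ETO_FIRST, 2744, 2915 and 3212 in CSF3R_FIRST, against 1798, 1639.7 and 2255 in EMPTY. It was 1.56-fold higher in CSF3R_FIRST than in EMPTY (log2 difference 0.64, SE 0.12, adjusted p = 0.000222) and 1.65-fold higher in RUNX1-ETO_FIRST than in RUNX1-ETO_ONLY (log2 difference 0.72, SE 0.12, adjusted p = 0.000224). Ldhb, the other main subunit, had 10 counts over all 15 libraries, at most 2 in any, and was not tested. Pdk1, the kinase that shuts pyruvate dehydrogenase, passed the test in none of the 10 comparisons and ranged from 101.7 to 149.5 CPM. Without the 4 libraries low in long transcripts it was lower in RUNX1-ETO_ONLY than in EMPTY (log2 difference -0.28, adjusted p = 0.000142), as it was in CSF3R_ONLY (-0.24) and CSF3R_FIRST (-0.15), and higher in RUNX1-ETO_FIRST than in RUNX1-ETO_ONLY (0.23).

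Of the pentose phosphate genes, G6pdx, Pgd, Tkt and Taldo1 averaged highest in CSF3R_ONLY. G6pdx (chrX:74409483-74429194), glucose 6-phosphate dehydrogenase and the entry enzyme, had 258, 253 and 282 CPM in RUNX1-ETO_ONLY, 863, 876 and 839.6 in CSF3R_ONLY, 346, 297 and 315 in RUNX1-ETO_FIRST, 375, 346 and 397 in CSF3R_FIRST, against 384, 358 and 483 in EMPTY. CSF3R_ONLY stood apart from every other group, 2.11-fold above EMPTY (log2 difference 1.07, SE 0.10, adjusted p = 5.81e-07), and RUNX1-ETO_ONLY was below EMPTY (log2 difference -0.63, SE 0.10, adjusted p = 0.000136). In CSF3R_FIRST cells, which have the same receptor and the fusion, G6pdx was 2.31-fold lower than in CSF3R_ONLY (log2 difference -1.21, SE 0.10, adjusted p = 1.03e-07) and its libraries overlapped those of EMPTY. Pgd, which takes the second NADPH-producing step, had 305, 279 and 309 CPM in RUNX1-ETO_ONLY, 705, 691 and 713 in CSF3R_ONLY, 409.6, 349 and 375 in RUNX1-ETO_FIRST, 428, 410.4 and 429.8 in CSF3R_FIRST, against 574, 568 and 643 in EMPTY. It was 2-fold lower in RUNX1-ETO_ONLY than in EMPTY (log2 difference -1.0, SE 0.077, adjusted p = 4.01e-08), and lower in RUNX1-ETO_FIRST (log2 difference -0.66, SE 0.077, adjusted p = 3.69e-06) and CSF3R_FIRST (log2 difference -0.49, SE 0.077, adjusted p = 5.33e-05). The rise of Pgd in CSF3R_ONLY (adjusted p = 0.0246) did not pass without CSF3R_ONLY replicate 1, 2 or 3 (adjusted p = 0.0651, 0.0506 and 0.0759), EMPTY replicate 1 or 2 (0.0765 and 0.0816), RUNX1-ETO_FIRST replicate 3 (0.0605) or CSF3R_FIRST replicate 1 or 2 (0.0548 and 0.0558).

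Of the 6 pentose phosphate members, 5 were lower in RUNX1-ETO_ONLY than in EMPTY, beside 18.1% of all genes. None was higher than EMPTY in either group with both alleles. There 4 (RUNX1-ETO_FIRST) and 3 (CSF3R_FIRST, with Tkt) were lower, beside 20.1% and 26.5% of all genes. Adding the fusion to receptor cells lowered 5 of 6 in CSF3R_FIRST relative to CSF3R_ONLY, beside 22.5% of all genes. The differences were -0.32 for Rpia, -0.46 for Taldo1, -0.51 for Tkt, -0.73 for Pgd and -1.21 for G6pdx on the log2 scale. Tkt, the transketolase that links the pathway back to glycolysis and the most abundant of the 6, had 1222, 1222 and 1197 CPM in RUNX1-ETO_ONLY, 1862, 1862 and 2001 in CSF3R_ONLY, 1441, 1321 and 1353 in RUNX1-ETO_FIRST, 1388, 1392 and 1245 in CSF3R_FIRST, against 1727, 1728 and 1314 in EMPTY. EMPTY replicate 3 was the lowest EMPTY library for Tkt and lay within the range of the groups with both alleles, and the lower call of Tkt in CSF3R_FIRST was lost when any library but EMPTY replicate 3 was left out (adjusted p up to 0.175). Rpia, which makes ribose 5-phosphate, averaged 63.5 ± 0.0457 CPM in RUNX1-ETO_FIRST and 65.6 ± 5.71 in CSF3R_FIRST, against 92.0 ± 8.44 in EMPTY (SD, n = 3 each). Pgls, the lactonase of the second step, was the exception, passing in no comparison of the 10; without the 4 libraries low in long transcripts it was lower in RUNX1-ETO_FIRST than in CSF3R_FIRST (log2 difference -0.21, adjusted p = 0.00378), RUNX1-ETO_ONLY (-0.24, adjusted p = 0.00103) and EMPTY (-0.25, adjusted p = 0.000471).

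Among the oxygen sensors and targets, all 6 were lower in RUNX1-ETO_ONLY than in EMPTY, beside 18.1% of all genes. All 6 were higher in RUNX1-ETO_FIRST than in RUNX1-ETO_ONLY, beside 15.9% of all genes. The lower call of Ddit4 in RUNX1-ETO_ONLY was marginal (log2 difference -0.24, adjusted p = 0.0489). It did not pass without the 4 libraries low in long transcripts (adjusted p = 0.0815). Hif1a (chr12:73901375-73947530), the regulated subunit of HIF-1, had 158, 135 and 131 CPM in RUNX1-ETO_ONLY, 481, 468 and 488 in CSF3R_ONLY, 264, 309.6 and 285 in RUNX1-ETO_FIRST, 303, 306 and 298 in CSF3R_FIRST, against 192, 195 and 160.0 in EMPTY. It was highest in CSF3R_ONLY, 2.63-fold above EMPTY (log2 difference 1.39, SE 0.092, adjusted p = 7.94e-09), and also above EMPTY in RUNX1-ETO_FIRST (log2 difference 0.65, SE 0.091, adjusted p = 2.45e-05) and CSF3R_FIRST (log2 difference 0.73, SE 0.091, adjusted p = 5.56e-06). Adding the fusion to receptor cells lowered it, with CSF3R_FIRST 1.58-fold below CSF3R_ONLY (log2 difference -0.66, SE 0.091, adjusted p = 1.78e-05). The HIF-1 protein is controlled largely by its stability, which these counts do not measure.

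Egln3 (chr12:54178981-54203860), a prolyl hydroxylase that is also a HIF target, had 353, 316 and 352 CPM in RUNX1-ETO_ONLY, 579.9, 585 and 598 in CSF3R_ONLY, 639, 578 and 619 in RUNX1-ETO_FIRST, 569, 516 and 600.2 in CSF3R_FIRST, against 670.4, 699.5 and 849 in EMPTY. It was 2.17-fold lower in RUNX1-ETO_ONLY than in EMPTY (log2 difference -1.12, SE 0.093, adjusted p = 9.52e-08). Bnip3 (chr7:138890836-138909519), a HIF target of mitochondrial turnover, had 152, 143 and 146 CPM in RUNX1-ETO_ONLY, 279, 300.4 and 283 in CSF3R_ONLY, 336, 298 and 288 in RUNX1-ETO_FIRST, 327, 332 and 359 in CSF3R_FIRST, against 293, 287 and 347 in EMPTY. It was 2.1-fold lower in RUNX1-ETO_ONLY than in EMPTY (log2 difference -1.07, SE 0.085, adjusted p = 5.36e-08), and RUNX1-ETO_FIRST was 2.09-fold above RUNX1-ETO_ONLY (log2 difference 1.06, SE 0.085, adjusted p = 1.42e-07) and overlapped EMPTY. Vegfa, the angiogenic growth factor, showed the same fall and return, with 62.0, 59.1 and 60.8 CPM in RUNX1-ETO_ONLY and 95.3, 99.9 and 95.9 in RUNX1-ETO_FIRST, against 109, 108 and 94.3 in EMPTY (RUNX1-ETO_ONLY minus EMPTY -0.78, adjusted p = 8.52e-07; RUNX1-ETO_FIRST minus RUNX1-ETO_ONLY 0.68, adjusted p = 8.05e-06). Ddit4, an inhibitor of mTOR induced by stress and hypoxia, rose instead above EMPTY in all groups with the receptor: it had 29.4, 32.5 and 30.1 CPM in CSF3R_ONLY, 41.2, 39.6 and 38.8 in RUNX1-ETO_FIRST and 44.0, 41.7 and 36.6 in CSF3R_FIRST, against 22.3, 21.2 and 21.5 in EMPTY. The log2 differences of Ddit4 were 0.50, 0.88 and 0.91 in that order of groups. Egln1, the main oxygen sensor, was lower in RUNX1-ETO_ONLY only among the 4 comparisons with EMPTY (log2 difference -0.55, SE 0.071, adjusted p = 1.22e-05).

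Adding the receptor to fusion cells raised most members. RUNX1-ETO_FIRST was higher than RUNX1-ETO_ONLY for 27 and lower for 1, beside 15.9% and 10.3% of all genes (26.2% in all), with a member median of 0.55 against -0.02 for all genes. Without the 4 libraries low in long transcripts, 28 were higher and 2 lower, beside 21.1% and 18.5% (39.5% in all). The largest rises among members with more than 10 counts per library were Aldoc (1.65), Slc16a3 (1.47), Ddit4 (1.12), Bnip3 (1.06), Hif1a (1.02) and Slc2a1 (0.94). Only Pfkfb3 was lower (log2 difference -0.26, adjusted p = 0.0478), and this call was lost when any library was left out other than CSF3R_FIRST replicate 3 and the EMPTY libraries (adjusted p up to 0.162). The higher call of Slc16a1 was lost without RUNX1-ETO_ONLY replicate 2 or 3 or RUNX1-ETO_FIRST replicate 2 or 3 (adjusted p up to 0.119). Adding the fusion to receptor cells divided the members: CSF3R_FIRST was higher than CSF3R_ONLY for 13 and lower for 11, beside 22.2% and 22.5% of all genes (44.7% in all), with a median of 0.14 against -0.02. Without the 4 low libraries these were 18 and 12, beside 29.5% and 28.9%. The higher ones included Aldoc (1.67), Hk1 (1.01), Pfkm (0.70), Pfkp (0.62) and Ldha (0.49), and the lower ones G6pdx (-1.21), Pfkfb3 (-0.74), Pgd (-0.73), Pfkfb4 (-0.72) and Hif1a (-0.66). The lower calls of Gpi1 and Pgam1 and the higher call of Bnip3 were lost when certain single libraries were left out: Gpi1 when any 1 library of CSF3R_ONLY or CSF3R_FIRST or RUNX1-ETO_FIRST replicate 3 was left out, Pgam1 without CSF3R_ONLY replicate 2 or 3, RUNX1-ETO_FIRST replicate 3 or CSF3R_FIRST replicate 1 or 3, and Bnip3 without CSF3R_ONLY replicate 1 or 3 or CSF3R_FIRST replicate 3 (adjusted p up to 0.248).

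**Figure D3:**
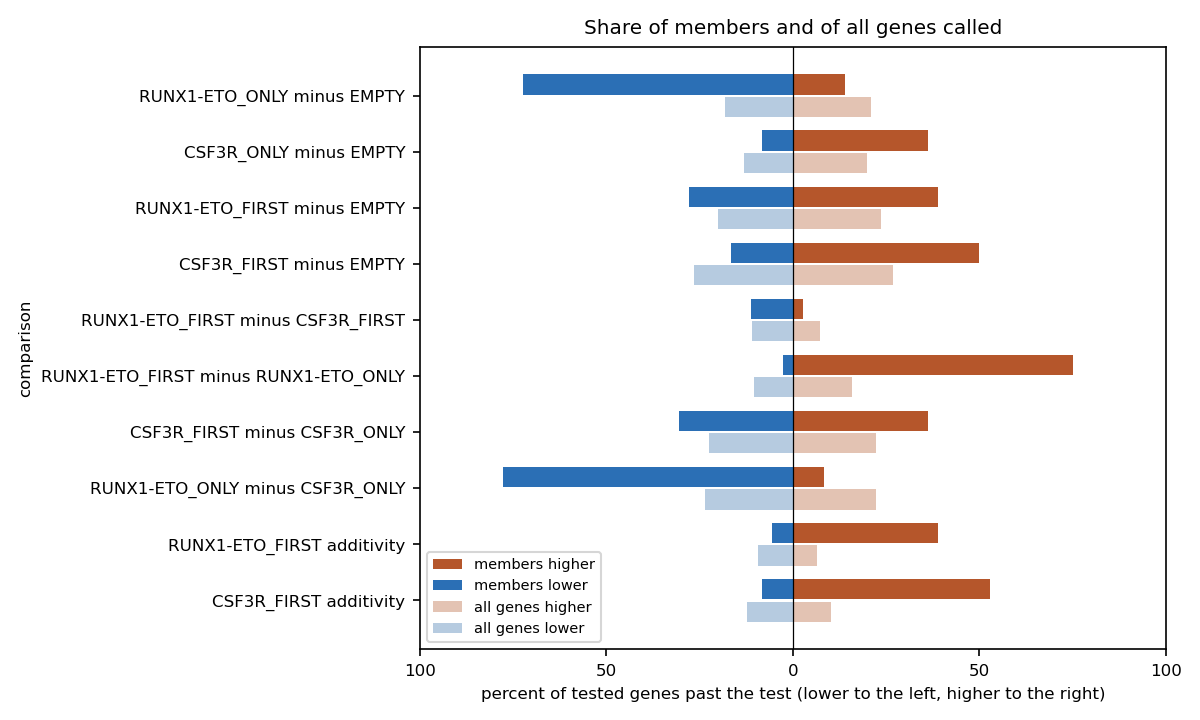
Percent of the 36 members and of all 13199 genes past the test (horizontal axis, lower to the left and higher to the right) in each of the 10 comparisons (vertical axis). The bar of lower members is long for RUNX1-ETO_ONLY against EMPTY (26 of 36) and against CSF3R_ONLY (28 of 36), and the bar of higher members is longest for RUNX1-ETO_FIRST against RUNX1-ETO_ONLY (27 of 36).

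For the order of the alleles, the question the series poses, the share of members called did not exceed that of all genes in the fit reported. RUNX1-ETO_FIRST was higher than CSF3R_FIRST for 1 member and lower for 4, beside 7.18% and 11.1% of all genes (18.2% in all). The member median was -0.14, against 0.00 for all genes. Aldoc showed the largest difference, 2.55-fold lower in RUNX1-ETO_FIRST (log2 difference -1.35, SE 0.095, adjusted p = 1.63e-07), with 76.1, 68.7 and 71.5 CPM there and 171, 189.9 and 191 in CSF3R_FIRST. Slc2a3 (-0.52) and Hk1 (-0.37, adjusted p = 0.000999) were also lower in RUNX1-ETO_FIRST in every leave-out fit. The lower call of Slc16a3 (adjusted p = 0.0343) did not pass without RUNX1-ETO_FIRST replicate 2 (adjusted p = 0.149), RUNX1-ETO_FIRST replicate 3 (0.0853) or CSF3R_FIRST replicate 1 (0.0775). The higher call of Slc16a1 (adjusted p = 0.0498) was lost when any library was left out other than RUNX1-ETO_ONLY replicates 1 and 3 and EMPTY replicates 1 and 3, with adjusted p up to 0.251.

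This count depended strongly on the libraries and the method. Without the 4 libraries low in long transcripts, 1 member was higher and 22 lower in RUNX1-ETO_FIRST, beside 13.7% and 20.4% of all genes, and all 5 calls of the full set were among these 23. The members added there had small differences, such as -0.41 for Aldoa, -0.33 for Pkm, -0.37 for Taldo1 and -0.19 for Slc2a1 on the log2 scale. Without EMPTY replicate 3 alone, 16 members passed (1 higher and 15 lower), and without RUNX1-ETO_FIRST replicate 2, RUNX1-ETO_FIRST replicate 3 or CSF3R_FIRST replicate 1, 3 passed, all lower. DESeq2 called 1 higher and 10 lower, limma-voom with sample weights 1 and 19, and scaling by library size alone 2 and 3.

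Whether the effects of the alleles added up was tested as the log2 level with both alleles, minus RUNX1-ETO_ONLY, minus CSF3R_ONLY, plus EMPTY. A positive value means that the receptor's log2 effect, sign included, was greater in fusion cells than in control cells. Equally, the fusion's log2 effect was then greater with the receptor than without it. For RUNX1-ETO_FIRST, 14 members were above the sum of the single effects and 2 below it, beside 6.34% and 9.39% of all genes (15.7% in all), with a median of 0.33 against -0.02. For CSF3R_FIRST, 19 were above and 3 below, beside 10.3% and 12.4% (22.8% in all), with a median of 0.52 against -0.04. Without the 4 libraries low in long transcripts these were 22 and 5 for RUNX1-ETO_FIRST, beside 12.1% and 14.7% of all genes (26.7% in all), and 25 and 4 for CSF3R_FIRST, beside 16.9% and 17.1% (34.0% in all). Among members past the test, the largest positive values in both were those of Egln3 (1.18 and 1.06), Bnip3 (1.17 and 1.31), Vegfa (0.95 and 1.11) and Eno1 (0.88 and 1.02), all 4 of them lower than EMPTY with the fusion alone. The members below the sum in both were Slc2a3 (-1.05 and -0.54) and G6pdx (-0.80 and -0.58), with Pfkfb3 for CSF3R_FIRST alone (-0.49). Aldoc exceeded the sum in CSF3R_FIRST (1.01, adjusted p = 9.06e-05) and did not pass in RUNX1-ETO_FIRST. The plot of the receptor's effect in fusion cells against its effect in control cells shows these departures from the diagonal.

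**Figure D4:**
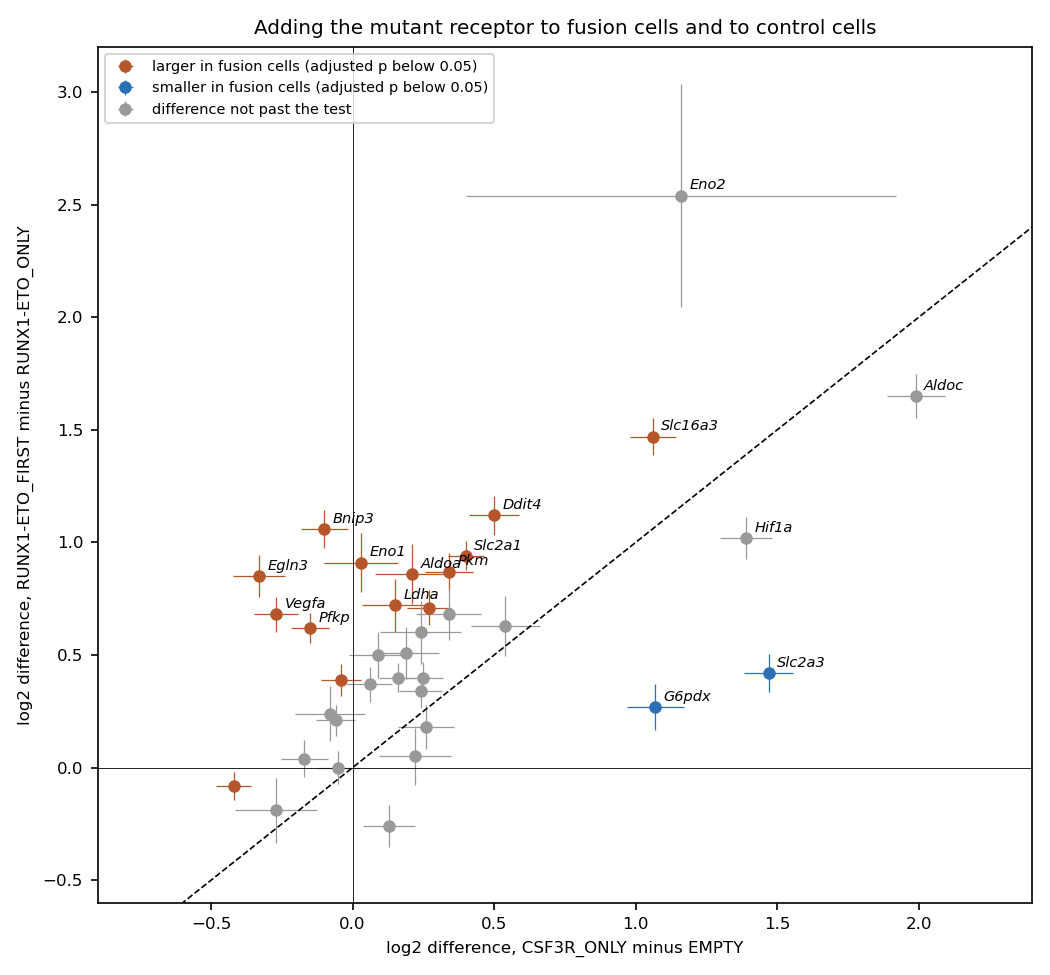
Log2 difference of each member on adding the receptor to fusion cells (RUNX1-ETO_FIRST minus RUNX1-ETO_ONLY, vertical) and to control cells (CSF3R_ONLY minus EMPTY, horizontal), with SE bars and a dashed line of equality. Egln3, Bnip3 and Vegfa lie at 0.85, 1.06 and 0.68 on the vertical axis and at or below 0 on the horizontal axis, and Slc2a3 and G6pdx lie below the line.

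Further genes of these pathways were read from lists outside the 37. The counts of this list and of those that follow stand beside the shares of all genes higher and lower than EMPTY. These were 20.8% and 18.1% in RUNX1-ETO_ONLY, 19.9% and 13.0% in CSF3R_ONLY, 23.7% and 20.1% in RUNX1-ETO_FIRST, and 26.7% and 26.5% in CSF3R_FIRST. Several of the counts lie near these shares and are then no result about the list. Of 26 other hypoxia genes, 24 were tested: 5 were higher and 7 lower in RUNX1-ETO_ONLY, 8 and 4 in CSF3R_ONLY, 11 and 2 in RUNX1-ETO_FIRST, and 14 and 1 in CSF3R_FIRST, each against EMPTY. P4ha2, a collagen prolyl hydroxylase, had 3.98, 3.70 and 4.98 CPM in RUNX1-ETO_ONLY, 2.45, 2.14 and 2.83 in CSF3R_ONLY, 15.8, 13.9 and 14.0 in RUNX1-ETO_FIRST, 26.0, 27.4 and 28.1 in CSF3R_FIRST, against 3.03, 2.67 and 2.64 in EMPTY. It was 5.22-fold higher in RUNX1-ETO_FIRST (log2 difference 2.38, SE 0.13, adjusted p = 6.14e-10) and 9.74-fold higher in CSF3R_FIRST (log2 difference 3.28, SE 0.13, adjusted p = 7.75e-12), and lower in RUNX1-ETO_FIRST than in CSF3R_FIRST (log2 difference -0.90, SE 0.11, adjusted p = 4e-05). Ero1a, an oxidase of protein folding, had 590.1, 540.2 and 505 CPM in RUNX1-ETO_ONLY, 868, 852 and 850.3 in CSF3R_ONLY, 1406, 1566 and 1489 in RUNX1-ETO_FIRST, 2519.6, 2538 and 2581 in CSF3R_FIRST, against 882, 826 and 686 in EMPTY. It fell in RUNX1-ETO_ONLY (log2 difference -0.55), rose in RUNX1-ETO_FIRST (0.90) and CSF3R_FIRST (1.67), and was also lower in RUNX1-ETO_FIRST than in CSF3R_FIRST (-0.78). Epas1, which encodes HIF-2α, was low throughout but rose in all groups, at 5.70 ± 1.49 CPM in RUNX1-ETO_FIRST (3.14) and 5.64 ± 1.27 in CSF3R_FIRST (3.12), against 0.638 ± 0.408 in EMPTY (SD, n = 3 each).

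Hif3a, a HIF relative that can restrain HIF-1, split the single alleles: it was higher in RUNX1-ETO_ONLY (log2 difference 0.82) and lower in CSF3R_ONLY (-1.12) than in EMPTY, and higher in RUNX1-ETO_FIRST (1.17) and CSF3R_FIRST (1.27). Car9, the carbonic anhydrase used as a hypoxia marker, fell in CSF3R_ONLY (-0.66) and rose in RUNX1-ETO_FIRST (0.46) and CSF3R_FIRST (0.95). Bhlhe40, a HIF-induced repressor, rose with the receptor in CSF3R_ONLY (0.87), RUNX1-ETO_FIRST (1.44) and CSF3R_FIRST (1.80).

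**Figure D5:**
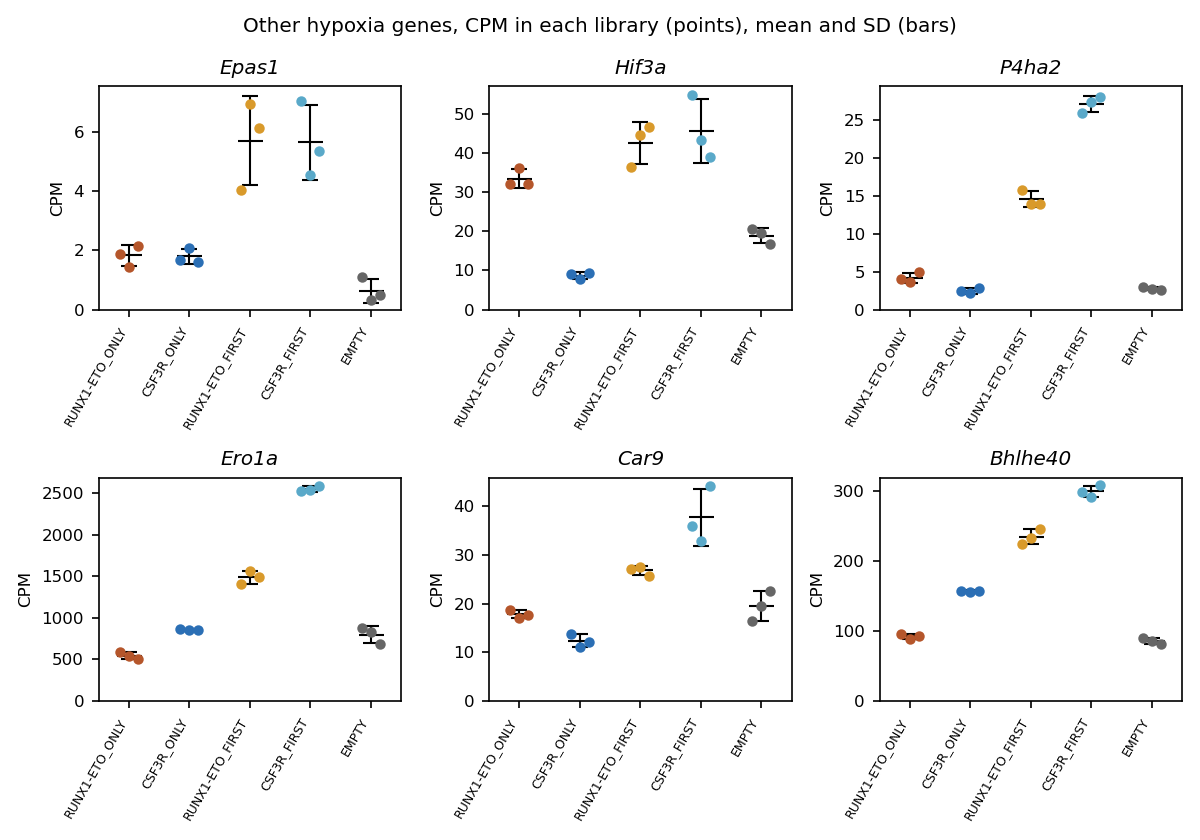
CPM of 6 hypoxia genes outside the 37 (vertical axes, starting at 0) in the 5 groups, each library a point, with mean and SD of 3 libraries as bars. P4ha2 and Ero1a are highest in CSF3R_FIRST, where Ero1a reaches 2581 CPM, and Hif3a and Car9 are lowest in CSF3R_ONLY.

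Of 26 other glycolysis and sugar genes, 17 were tested, and 7 were higher and 2 lower in RUNX1-ETO_ONLY, 3 and 2 in CSF3R_ONLY, 7 and 3 in RUNX1-ETO_FIRST, and 7 and 4 in CSF3R_FIRST. Bsg, the chaperone that carries lactate transporters to the membrane, had 1009, 812 and 884 CPM in RUNX1-ETO_FIRST and 1160.0, 1207 and 1348 in CSF3R_FIRST, against 500.3, 488 and 715 in EMPTY (log2 differences 0.67 and 1.13). Fbp1, an enzyme of gluconeogenesis that opposes phosphofructokinase, was highest in RUNX1-ETO_ONLY, with 25.1, 22.7 and 22.5 CPM in RUNX1-ETO_ONLY, 0.934, 1.04 and 1.15 in CSF3R_ONLY, 9.31, 7.26 and 7.55 in RUNX1-ETO_FIRST, 5.17, 5.14 and 6.91 in CSF3R_FIRST, against 0.496, 0.555 and 1.56 in EMPTY, a log2 difference of 4.76 over EMPTY (adjusted p = 5.17e-10). Its relative Fbp2 had 135 counts in RUNX1-ETO_FIRST and 739 in CSF3R_FIRST, against 1 in EMPTY, a ratio of 133 (exact 95% counting interval 23.4 to 5280) and of 780 (140 to 30900). Hkdc1, a hexokinase-like gene, had 160 counts in RUNX1-ETO_FIRST and 387 in CSF3R_FIRST, against 0 in EMPTY, which is at least 17.5-fold and at least 45.4-fold higher with EMPTY set at a floor of 3 counts per library. Ldhd, which oxidizes D-lactate, rose in every group, most in CSF3R_FIRST (13.0, 14.9 and 17.9 CPM, against 0.110, 0.222 and 0.420 in EMPTY, a log2 difference of 5.91). Fbp2 and Hkdc1 could pass the count filter only with libraries of both alleles, and Ldhd was too low in EMPTY to pass it there. Calls of these genes are not separate support for the counts of this list. The genes named from this list all rose, while the lowest log2 differences in it were -1.66 in RUNX1-ETO_FIRST and -2.3 in CSF3R_FIRST.

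Of 13 genes around the mitochondrial entry of pyruvate, 12 were tested, and 2 were higher and 4 lower in RUNX1-ETO_ONLY, 2 and 1 in CSF3R_ONLY, 3 and 4 in RUNX1-ETO_FIRST, and 3 and 6 in CSF3R_FIRST. Pdk2 and Pdk3, kinases of the same family as Pdk1, rose in every group. The log2 differences of Pdk2 were 1.92 in RUNX1-ETO_ONLY, 1.44 in CSF3R_ONLY, 2.19 in RUNX1-ETO_FIRST and 3.07 in CSF3R_FIRST, where it averaged 13.6 ± 1.16 CPM, against 1.61 ± 0.196 in EMPTY (SD, n = 3 each). Those of Pdk3 were 0.34, 0.67, 0.73 and 0.82 in the same order, the first of them past the test in the fit of all groups but not with RUNX1-ETO_ONLY and EMPTY alone (adjusted p = 0.0637). Pcx, pyruvate carboxylase, fell in RUNX1-ETO_ONLY (-0.92), RUNX1-ETO_FIRST (-1.09) and CSF3R_FIRST (-1.19).

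Of the 8 other pentose phosphate genes, 6 were tested. None was higher than EMPTY and 3 lower in RUNX1-ETO_ONLY, 0 and 1 in CSF3R_ONLY, 0 and 5 in RUNX1-ETO_FIRST, and 1 and 4 in CSF3R_FIRST. The lower ones in both groups with 2 alleles included Rpe (-0.82 and -0.58), the epimerase beside Rpia, and Prps2 (-0.48 and -0.80), which turns ribose 5-phosphate into the precursor of nucleotides. Of 10 glucose-sensing and growth regulators, 1 was higher and 3 lower in RUNX1-ETO_ONLY, 2 and 2 in CSF3R_ONLY, 3 and 3 in RUNX1-ETO_FIRST, and 3 and 3 in CSF3R_FIRST. Mlx, a partner of the glucose-sensing factors, fell in RUNX1-ETO_ONLY (-1.16), RUNX1-ETO_FIRST (-0.81) and CSF3R_FIRST (-0.79). Txnip, a glucose-induced inhibitor of glucose uptake, rose in all 4 groups (0.75, 0.39, 0.89 and 1.32, in the order RUNX1-ETO_ONLY, CSF3R_ONLY, RUNX1-ETO_FIRST, CSF3R_FIRST). Mycn, at a low level, rose with the receptor and averaged 2.57 ± 0.416 CPM in CSF3R_ONLY, 2.61 ± 0.452 in RUNX1-ETO_FIRST and 2.92 ± 0.39 in CSF3R_FIRST, against 0.307 ± 0.223 in EMPTY (SD, n = 3 each), while Myc fell in the same groups (-0.39, -0.31 and -0.45). Mycn was too low in EMPTY to pass the count filter there, so its calls are not separate support for the counts of this list. The RUNX1-ETO_FIRST call of Myc was lost with only RUNX1-ETO_FIRST and EMPTY fitted (adjusted p = 0.0514).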

How the data were processed

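RNA-seq was done on 15 libraries of the mouse line HoxB, 3 in each of 5 groups. Per the labels, the strand-specific mRNA libraries were made from column-purified, DNase-treated RNA and run on a BGI DNBSEQ instrument. The table the authors deposited holds raw counts by gene symbol for each library. Trimmomatic, STAR, DESeq2 and mm10 are named in the submitters' processing notes. The labels leave unnamed the counting program, its annotation and strand setting, and what was done with reads that fit several copies, so values of overlapping genes and close copies are less certain.

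Of 52328 entries, 1 named no gene; it took 0.0179% to 0.0305% of a library's counts and was left out. Genes with 10 or more counts in at least 3 libraries were kept, scaled by TMM (factors 0.921 to 1.09) and fitted together in edgeR 4.0.16 (R 4.3.3), with robust quasi-likelihood F tests, 5 group means and 10 residual degrees of freedom. Tests are two-sided, and p-values were adjusted by Benjamini and Hochberg over 13199 genes in each of 10 comparisons, 8 between pairs of groups and 2 of additivity, with a threshold of 0.05. CPM values use TMM library sizes, log2 CPM a prior count of 2, and SE is on the log2 scale. Levels between genes are CPM per kilobase of the principal transcript in GENCODE M21. Promoter windows came from RefSeq (GRCm38.p6).

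Alternatives were RLE and unscaled libraries, other count filters, DESeq2 1.42.0, limma-voom 3.58.1, only the groups compared, a replicate block, leaving out each library, and leaving out 4 libraries low in long transcripts. The code was tested on simulated data. Deviations from the group means of libraries with the same replicate number correlated above 0.1 for all 3 numbers between RUNX1-ETO_ONLY and EMPTY (0.275, 0.267 and 0.451) and between CSF3R_FIRST and EMPTY (0.161, 0.135 and 0.362). Between RUNX1-ETO_ONLY and CSF3R_FIRST the correlations were 0.072, 0.088 and 0.243. In the other 8 pairs of groups, this one among them, not all 3 numbers passed 0.1. Replicate 3 of these 3 groups is among the 4 libraries low in long transcripts. Pairing by number and that shared trait cannot be told apart. The labels give no pairs, and the fits reported used no replicate block. Precision is limited by 3 libraries a group. No library pair of a group agreed within counting noise (chi-square per degree of freedom 2.45 to 75). Members and lists were chosen with earlier results of these data known. Named genes are, per role and comparison, the member with the largest called change and the most abundant, and from other lists up to 4 with the largest called change.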

Additional observations from a re-analysis of the deposited data

Results flagged for a closer look

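Each value here was singled out because a test of the difference itself passed: the receptor's log2 effect in fusion cells differed from its effect in control cells (equally, the fusion's effect differed with and without the receptor), edgeR adjusted p below 0.05. The values are departures from additivity on the log2 scale.

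For RUNX1-ETO_FIRST, 5 of the 6 hypoxia genes lay above the sum of the single effects: Egln3 by 1.18, Bnip3 by 1.17, Vegfa by 0.95, Ddit4 by 0.61 and Egln1 by 0.43. Of the glycolytic enzymes, Eno1 lay above it by 0.88, Pfkp by 0.77, Aldoa by 0.65, Ldha by 0.57, Pkm by 0.54, Pgk1 by 0.44 and Hk3 by 0.34. The transporters Slc2a1 and Slc16a3 lay above it by 0.54 and 0.41. G6pdx and Slc2a3 lay below it, at -0.80 and -1.05. The calls of Aldoa and Ldha were lost without RUNX1-ETO_ONLY replicate 1 or 2, CSF3R_ONLY replicate 1, 2 or 3 or RUNX1-ETO_FIRST replicate 1, and that of Slc16a3 without RUNX1-ETO_ONLY replicate 2, CSF3R_ONLY replicate 1 or 2 or RUNX1-ETO_FIRST replicate 1 (adjusted p up to 0.0772).

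For CSF3R_FIRST, Bnip3 lay above the sum by 1.31, Vegfa by 1.11, Egln3 by 1.06, Ddit4 by 0.65 and Egln1 by 0.48. The enzymes above it were Eno1 (1.02), Aldoc (1.01), Aldoa (0.98), Pfkp (0.89), Ldha (0.85), Pkm (0.79), Pgk1 (0.61), Hk1 (0.61), Gapdh (0.59), Gpi1 (0.56), Tpi1 (0.56) and Pgam1 (0.37). Slc2a1 and Slc16a3 lay above it by 0.68 and 0.67. Pfkfb3, Slc2a3 and G6pdx lay below it, at -0.49, -0.54 and -0.58. The calls of Tpi1 were lost without RUNX1-ETO_ONLY replicate 1 or 2 or CSF3R_ONLY replicate 3, of Pgam1 without RUNX1-ETO_ONLY replicate 1 or 2 or CSF3R_ONLY replicate 1, of Pfkfb3 without CSF3R_FIRST replicate 3, and of Gapdh without RUNX1-ETO_ONLY replicate 1 or 2, CSF3R_FIRST replicate 1 or 3, RUNX1-ETO_FIRST replicate 1 or 2 or CSF3R_ONLY replicate 1, 2 or 3 (adjusted p up to 0.114). Both sets use the same RUNX1-ETO_ONLY, CSF3R_ONLY and EMPTY libraries.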

How the results depend on the processing

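Of 221 member calls, 172 passed in all 24 alternatives, the 4 of Eno2 passed in the 19 that kept it above the count filter, 45 were lost in at least 1 and 0 changed sign; of 67 calls named for other genes, 5 were lost somewhere and 0 changed sign. Fitting only the groups compared lost 32 member calls, more than any other alternative. For CSF3R_ONLY minus EMPTY, 16 members passed in the fit reported, against 26 with voom, 10 with only the groups compared and 26 without the 4 libraries that were low for long transcripts (the 4 low libraries). For RUNX1-ETO_FIRST minus EMPTY, 15 of the 24 passed with only the groups compared. For RUNX1-ETO_FIRST minus CSF3R_FIRST, 5 passed, against 11 with DESeq2, 20 with voom and 23 without the 4 low libraries, and 3 to 16 when single libraries were left out. For RUNX1-ETO_FIRST additivity, 16 passed, against 25 with voom and 27 without those libraries. The cause was not tested. Over all genes, RUNX1-ETO_ONLY minus EMPTY gave 5132 calls, against 3402 with only the groups compared, the order comparison 2407, against 4266 with voom and 4391 without the low libraries, and RUNX1-ETO_FIRST additivity 2076, against 3485 and 3446. Scaling by library size alone moved the median of all genes, most in CSF3R_FIRST additivity (to -0.20) and CSF3R_FIRST minus EMPTY (to -0.19), and moved the share of all calls that were higher from 60.4% to 49.1% in CSF3R_ONLY minus EMPTY, 50.2% to 37.9% in CSF3R_FIRST minus EMPTY, 39.4% to 61.9% in the order comparison, 60.7% to 38.3% in RUNX1-ETO_FIRST minus RUNX1-ETO_ONLY, 48.4% to 62.8% in RUNX1-ETO_ONLY minus CSF3R_ONLY and 45.4% to 26.9% in CSF3R_FIRST additivity. With a replicate block over all 5 groups, members higher and lower numbered 14 and 3 in CSF3R_ONLY minus EMPTY, 19 and 6 in CSF3R_FIRST minus EMPTY, 0 and 5 in the order comparison and 28 and 1 in RUNX1-ETO_FIRST minus RUNX1-ETO_ONLY, and equalled the reported counts in the other 6 comparisons; 1 call, that of Slc16a1 in the order comparison, was lost. In RUNX1-ETO_ONLY minus EMPTY and CSF3R_FIRST minus EMPTY, the block added the call of Eno1 in the latter and changed no other.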
